A study of Mus musculus with 6 samples.

Results

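Sertoli cells are the somatic nurse cells of the seminiferous tubule, and spermatogonia sit against them on the basement membrane. They supply germ cells with growth factors, answer follicle-stimulating hormone (FSH) and seal the blood-testis barrier with tight junctions. The genes considered here are 8 that mark this cell type, read out in libraries made from sorted spermatogonia: the transcription factors Sox9, Wt1 and Gata4, the hormones Amh and Inha, the hormone receptor Fshr, the tight junction protein Cldn11 and the secreted protein Clu. They were chosen by name, with earlier results of these data known, and all 8 were found among the 53657 gene names counted.

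The libraries came from tdTomato+ MCAM-bright undifferentiated spermatogonia (A_undiff) of 3 WT and 3 MUT adult mice, 1 library a mouse. All 6 mice carried Gfra1-creERT2, a tamoxifen-dependent Cre driven by the Gfra1 promoter, and a floxed tdTomato reporter, and all received tamoxifen 3 months before isolation. WT mice were littermates of wild type Hras. MUT mice also carried FR-Hras G12V on 1 allele, which Cre converts to the activated form at the endogenous locus. The mice were of a mixed background of C57BL/6J, 129/Sv and Swiss Black. Because the Gfra1 promoter drives the Cre, the label was intended for the germ line, and Sertoli cells were not a target of the sort. MCAM is also found on some somatic cells. The comparison of MUT with WT asks whether activated Hras alters the transcriptome of these cells.

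Fragments counted on genes numbered between 22729292 and 23550433 a library, so that 3 counts, the floor used here, correspond to 0.127 to 0.131 CPM (counts scaled to library size). Levels below are CPM after TMM normalization, or RPKM, the same value per kilobase of exon, where genes are compared with each other. Between replicates of a group the chi-square per degree of freedom of the counts lay between 4.67 and 27.6, and both pairs with WT replicate 3 (20.5 and 27.6) stood above all other pairs, of which the highest was 11.1. For the marker genes listed above that were tested, fold changes are also given with single libraries left out, as values or ranges. The log2 ratio of the sum over all these marker genes is also given without WT replicate 1 and without WT replicate 3. So is Pearson's r of single genes with Clu, where it is taken over all libraries. Other sums, and fold changes of other genes, are given with all libraries only. Germ cell genes were abundant, with Ddx4 and Dazl summing to between 1328 and 1470 CPM. Somatic genes were present too, with 6 macrophage genes summing to between 642 and 1197 CPM. Hras (log2 fold change 0.14, MUT over WT) and tdTomato (-0.012) were present in every library, but counts of the whole Hras gene do not separate the alleles.

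All 8 genes had counts in all 6 libraries, though Fshr, with 2 to 5, was at or near the floor. The members were spread over 8 loci of the mouse genome (GRCm38), and none shared exon bases with another annotated gene. Clu, encoding the secreted chaperone clusterin, lies on chromosome 14 from 65968483 to 65981547 on the plus strand. Inha, encoding the inhibin alpha subunit that restrains FSH release, lies on chromosome 1 from 75507077 to 75510366. Cldn11, encoding the claudin of the blood-testis barrier, lies on chromosome 3 from 31149920 to 31164324. Gata4 (chromosome 14, 63198922 to 63271692, minus strand), Wt1 (chromosome 2, 105126529 to 105173616) and Sox9 (chromosome 11, 112782224 to 112787760) encode a GATA zinc finger, another zinc finger and an SRY-box factor. Amh, encoding anti-Müllerian hormone, lies on chromosome 10 from 80805243 to 80807648, and Fshr, encoding the FSH receptor, on chromosome 17 from 88985170 to 89200612 on the minus strand.

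RefSeq promoter entries on GRCm38.p6 were matched for 3 of the 8 genes. That of Inha lay inside the gene as annotated in GENCODE and is not printed. The other two are shown because they belong to a member that differed several-fold between WT libraries (Cldn11) and to the member with the fewest counts (Fshr). Each is the 250 bases before the RefSeq start, 5′ to 3′ on the strand of the gene, with capitals marking a CACGTG (an E-box), at chr3:31149670-31149919 (plus strand) for Cldn11 and chr17:89200676-89200925 (minus strand) for Fshr.
Cldn11: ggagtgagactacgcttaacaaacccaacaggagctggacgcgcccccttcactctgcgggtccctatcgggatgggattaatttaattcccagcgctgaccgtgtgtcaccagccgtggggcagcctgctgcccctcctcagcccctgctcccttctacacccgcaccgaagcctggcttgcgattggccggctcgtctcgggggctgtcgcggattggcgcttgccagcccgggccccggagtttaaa
Fshr: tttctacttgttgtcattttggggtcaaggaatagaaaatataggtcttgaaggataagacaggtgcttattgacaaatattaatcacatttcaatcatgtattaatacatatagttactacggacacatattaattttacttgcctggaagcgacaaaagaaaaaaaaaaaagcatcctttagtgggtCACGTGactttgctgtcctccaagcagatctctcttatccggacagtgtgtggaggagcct
Both strands were searched. Neither window held the SOX core AACAAT, which was in 9.42% of 32851 windows of this length, or the NR5A1 core AAGGTCA, which was in 4.08%. Neither held a GATA site, searched as AGATAA and as its variants with T as the opening base, G as the closing base or both, which was in 26.5%. CACGTG, searched for after the sequences had been read, was in the Fshr window 61 bases before the start and in 6.02% of all windows. These matches describe letters only.

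Per length, Clu was the most abundant member and Fshr the least. Clu averaged 20.3 RPKM (9.87 to 29.9 over the 6 libraries), above 83.9% of the 19656 genes tested. Inha averaged 5.08 RPKM (3.08 to 7.42), close to the median of all tested genes at 3.90 RPKM. Cldn11 (2.29 RPKM, 1.15 to 3.39), Gata4 (2.29 RPKM, 2.03 to 2.53) and Wt1 (1.96 RPKM, 1.67 to 2.67) followed. The ranges of Inha, Cldn11, Gata4 and Wt1 overlapped from each to the next, so their order is not resolved. Sox9 lay below them at 0.544 RPKM (0.372 to 0.640), Amh at 0.246 RPKM (0.179 to 0.340) and Fshr at 0.0725 RPKM (0.042 to 0.103), with no overlap at any of these steps or between Clu and Inha. Fshr, the receptor through which Sertoli cells sense FSH, was above only 0.473% of tested genes. It was not itself tested, as it failed the filter on low counts that those genes passed, so a low place was set in advance.

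The median of the 8 members was 2.13 RPKM. This was somewhat above the medians of the lists for Leydig cells (1.33 RPKM), endothelial cells (1.42 RPKM) and peritubular myoid cells (0.735 RPKM). It was far below those for macrophages (36.5 RPKM), undifferentiated spermatogonia (56.6 RPKM) and spermatids (350 RPKM). The genes with the highest CPM in these lists were Star, Egfl7, Myl9, Lyz2, Mcam and Prm2. A further 17 genes of Sertoli cells, the second list, had a median of 1.03 RPKM. In bulk samples, fewer cells of a type and less RNA per cell cannot be told apart, so these levels do not count cells.

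**Figure D1:**
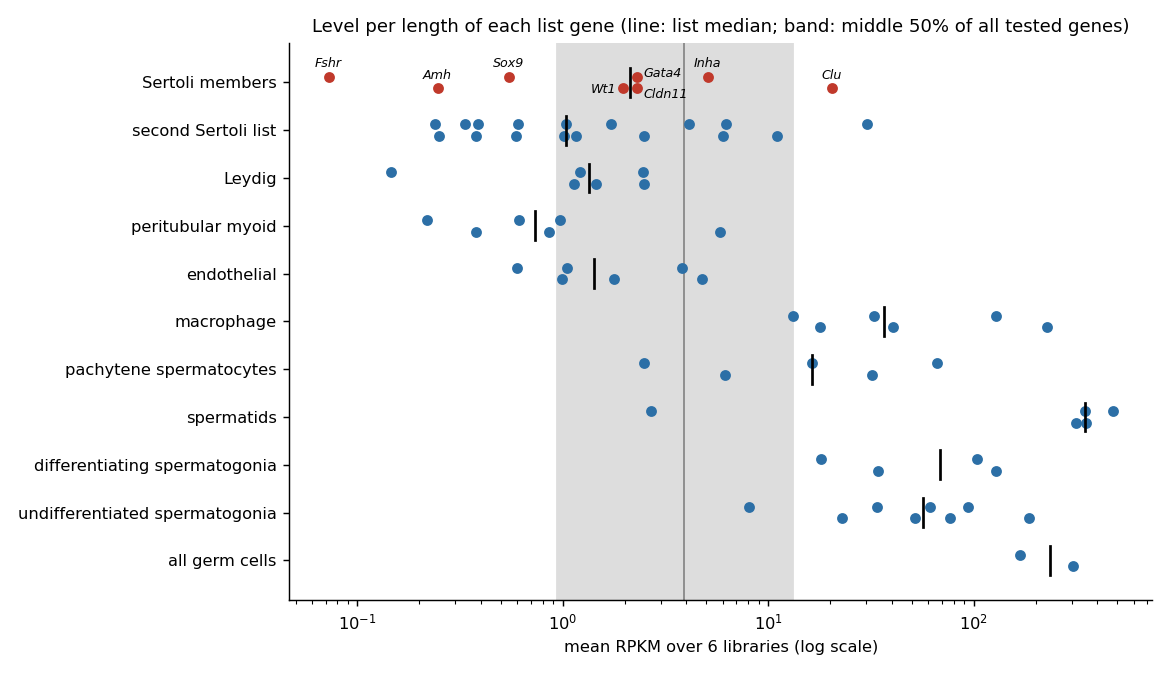
Mean RPKM over the 6 libraries (log scale) of each gene of 11 cell type lists, with the list median as a black line, the median of all tested genes as a grey line and the middle 50% of all tested genes as a grey band. The 8 Sertoli members run from Fshr at 0.0725 RPKM to Clu at 20.3 RPKM, and 7 of the 8 lie left of every macrophage gene.

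The transcription factors had the smallest ranges of the 8 genes, the highest library being 1.25 (Gata4) to 1.72 (Sox9) times the lowest. Sox9, which directs Sertoli cell fate in the fetal gonad and stays on in the adult, had 56, 49 and 53 counts in WT replicates 1, 2 and 3 and 58, 61 and 36 in MUT replicates 1, 2 and 3. The groups overlapped, and MUT replicate 3 was the lowest library. Sox9 averaged 2.26 ± 0.178 CPM (SD, n = 3) in WT and 2.24 ± 0.610 CPM in MUT, a log2 fold change of -0.014 (standard error 0.246, 95% confidence interval -0.58 to 0.55).

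Wt1, a zinc finger factor that Sertoli cells need to keep their identity, had 242, 242 and 259 counts in WT and 293, 381 and 271 in MUT. Every MUT library lay above every WT library, with MUT replicate 2 the highest. Wt1 averaged 10.6 ± 0.305 CPM in WT and 13.6 ± 2.57 CPM in MUT (SD, n = 3). The log2 fold change was 0.36 (standard error 0.151, 95% confidence interval 0.015 to 0.71). The p of 0.0428 before adjustment did not pass after it (adjusted p = 0.998, edgeR's quasi-likelihood test, adjusted by Benjamini-Hochberg over all tested genes). Without MUT replicate 2 the log2 fold change was 0.19.

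Gata4, a zinc finger factor of Sertoli and Leydig cells, had 181, 193 and 211 counts in WT and 212, 219 and 231 in MUT. The groups again did not overlap, though on the CPM scale the lowest MUT library (9.27 CPM) was close to the highest WT library (8.92 CPM). Gata4 averaged 8.36 ± 0.513 CPM (SD, n = 3) in WT and 9.55 ± 0.307 CPM in MUT, a log2 fold change of 0.19 (standard error 0.125, 95% confidence interval -0.095 to 0.48). Among all tested genes, 4.69% had every MUT library above every WT library. Wt1 and Gata4 were the members of this kind among the 6 that were tested.

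The hormone genes and the receptor covered a wide span of counts. Amh, which in adult Sertoli cells is kept low, had 10, 7 and 9 counts in WT and 13, 10 and 8 in MUT, above the floor of 3 counts throughout and overlapping between groups. Fshr had 2, 5 and 3 counts in WT and 4, 3 and 4 in MUT. These straddle the floor, and no difference was detectable at this depth. Both genes were left out of the fit by its filter on low counts, which asks for about 0.429 CPM in at least 3 libraries. In CPM on library totals before TMM, which the filter uses, Amh met this level in 2 libraries and Fshr in 0. After TMM, Amh in MUT replicate 2 was at 0.434 CPM, just above this level. With no filter the log2 fold change was 0.27 for Amh (95% confidence interval -0.65 to 1.19) and 0.15 for Fshr (-1.26 to 1.55). Intervals this wide do not show that the groups were alike.

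Inha, in contrast, had 104, 191 and 259 counts in WT and 113, 162 and 218 in MUT. In both groups the library numbered 1 was the lowest and that numbered 3 the highest, and the groups overlapped fully. Inha averaged 7.88 ± 3.21 CPM (SD, n = 3) in WT and 7.09 ± 2.19 CPM in MUT, a log2 fold change of -0.15 (standard error 0.330, 95% confidence interval -0.91 to 0.60).

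Cldn11 had 49, 96 and 150 counts in WT and 98, 115 and 91 in MUT. Both its lowest and its highest library were WT, and the 3 MUT libraries lay between them. The means were 4.19 ± 2.10 CPM (SD, n = 3) in WT and 4.39 ± 0.556 CPM in MUT, a log2 fold change of 0.063 (standard error 0.341, 95% confidence interval -0.72 to 0.84).

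Clu, which is made by Sertoli cells and also by many other epithelia, had 776, 1653 and 2429 counts in WT and 1218, 1804 and 1881 in MUT. The same libraries were at the ends, WT replicate 1 the lowest and WT replicate 3 the highest. Clu averaged 69.1 ± 34.4 CPM (SD, n = 3) in WT and 70.6 ± 15.1 CPM in MUT, a log2 fold change of 0.032 (standard error 0.338, 95% confidence interval -0.74 to 0.80). This value turned on a WT library at either end: without WT replicate 1 it was -0.30 and without WT replicate 3 it was 0.43. The same held for Cldn11, at -0.26 and 0.49.

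**Figure D2:**
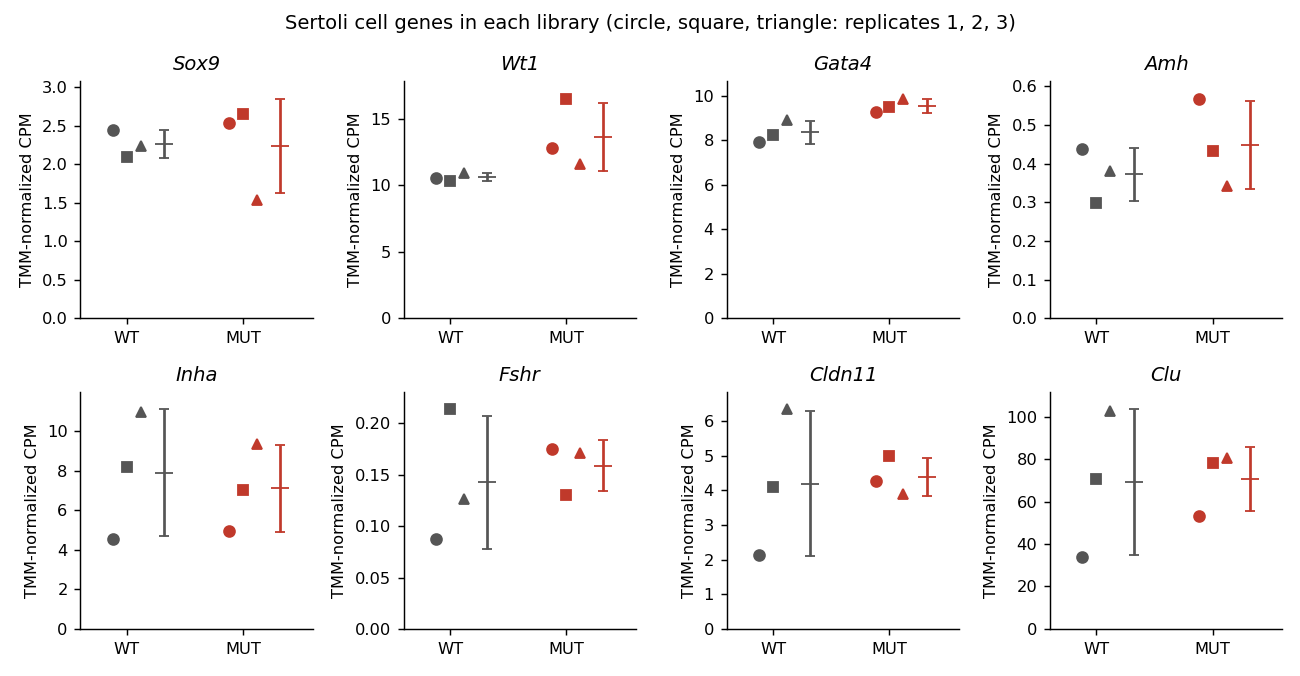
TMM-normalized CPM (linear axes from 0) of the 8 genes in 3 WT (grey) and 3 MUT (red) libraries; circles, squares and triangles are replicates 1, 2 and 3, and the bars to their right are mean ± SD. Wt1 and Gata4 are higher in each MUT library than in any WT library, while Inha, Cldn11 and Clu spread widely among the WT libraries.

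Of the 6 members tested, 0 were called in either direction by edgeR at an FDR (the rate of false discoveries allowed) of 0.1, and all had an adjusted p of 0.998. Wt1 alone had an unadjusted p under 0.05, as did 547 of all tested genes (2.78%). DESeq2 and limma voom also called 0 members. Across all genes the test called 2, both lower in MUT, or 0.0102%, and 0 of 6 members is close to that rate. With the replicate number as a block it called 13 (1 higher and 12 lower in MUT), or 0.0661%, and still 0 members. The intervals leave room for a member to differ: they run from 0.534-fold (Inha) to 1.79-fold (Cldn11).

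The second list gave the same picture. All 17 genes were tested, 0 were called and 0 had an unadjusted p under 0.05 by edgeR. DESeq2 and limma voom called 0 as well. The log2 fold changes were above 0 for 11 genes and below 0 for 6, where 51.8% of all tested genes were above 0. Their median was 0.048, against 0.0066 over all tested genes. The most abundant were Ctsl, encoding the protease cathepsin L and made by many cell types (195 CPM, log2 fold change -0.024), Amhr2, encoding the receptor for AMH (12.4 CPM, 0.048), and Cst9, encoding a cystatin (7.55 CPM, 0.084). The estimates farthest from 0 were those of Shbg (0.51, standard error 0.458), Trf, encoding transferrin (-0.28, standard error 0.231), and Gdnf, encoding the ligand of the GFRA1 receptor (-0.26, standard error 0.387). Shbg had only 4 to 19 counts a library. None of these estimates exceeded the spread between replicates by the test.

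**Figure D3:**
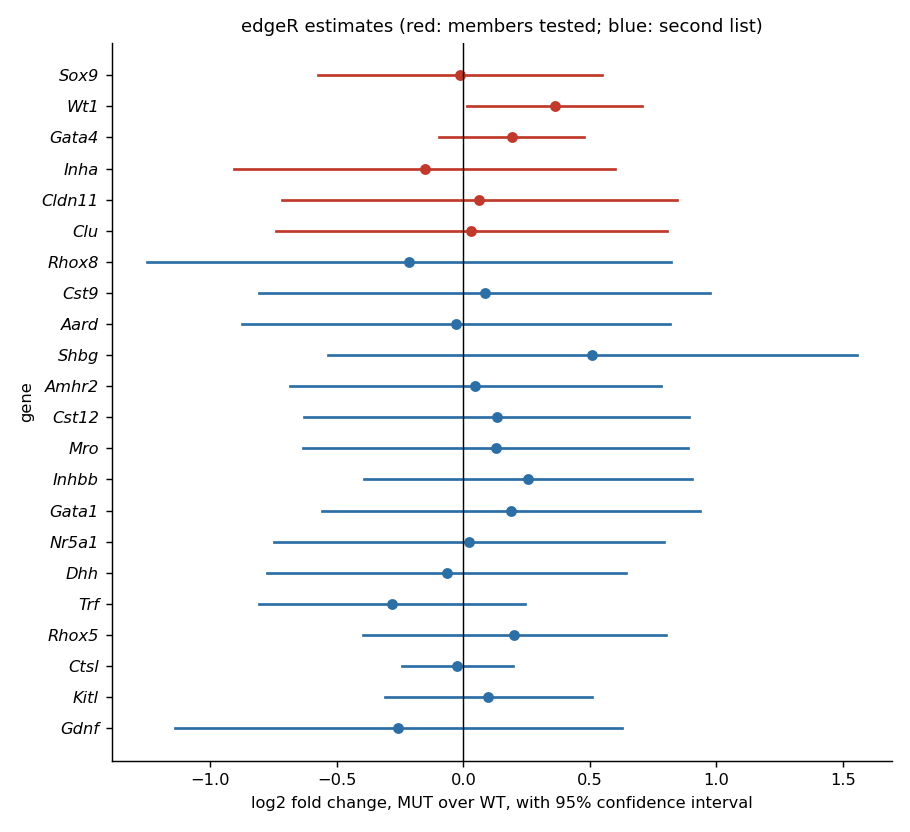
Log2 fold change of MUT over WT with its 95% confidence interval from edgeR, for the 6 tested members (red) and 16 of the 17 genes of the second list (blue). The interval of Wt1 (0.015 to 0.71) is the one that leaves out 0, before any adjustment for the number of genes tested.

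The largest differences among these genes were between WT libraries. From WT replicate 1 to WT replicate 3 the level was 3.03 times as high for Clu, 2.96 times for Cldn11 and 2.41 times for Inha. Over the same pair it was 1.04 times as high for Wt1, 1.13 times for Gata4 and 0.915 times for Sox9. In all tested genes the median of this ratio was 1.02, and 4.6% had a ratio over 2. Summed, the 3 transcription factors had 20.9, 20.7 and 22.1 CPM in WT and 24.6, 28.7 and 23.0 CPM in MUT. Clu and Cldn11 together had 36.1, 74.7 and 109 CPM in WT and 57.5, 83.2 and 84.3 CPM in MUT. The highest library was thus 1.39 times the lowest for the factors and 3.02 times for Clu and Cldn11.

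The spread between libraries, which come from separate mice, can be set beside the part that counting gives. For Clu, the coefficient of variation over the 6 libraries was 34.0%, where counting alone at this depth gives 2.48%. The corresponding values were 33.3% and 7.57% for Inha, 32.1% and 10.01% for Cldn11, and 19.2% and 5.96% for Wt1. Gata4 (8.40% and 6.94%) and Sox9 (17.9% and 13.8%) varied little more than counting alone gives. Amh (22.9% and 32.4%) and Fshr (29.6% and 53.5%) varied by less, so their levels are bounded by depth.

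Inha and Cldn11 followed Clu across libraries. On log2 CPM over the 6 libraries, Pearson's r with Clu was 0.92 for Inha (Spearman's rho 0.94) and 0.91 for Cldn11 (rho 0.60). After leaving out WT replicate 1 and MUT replicate 1, the libraries farthest from the median of Clu, r over the remaining 4 was 0.78 and 0.84. Macrophage genes had r of 0.84 to 0.99 over the same 4, so such values are not particular to Sertoli cell genes. Without WT replicate 1 alone r was 0.93 for Inha and 0.66 for Cldn11, and without WT replicate 3 alone it was 0.88 and 0.86. The transcription factors had r of 0.59 (Gata4, rho 0.54), 0.20 (Wt1, rho 0.20) and -0.35 (Sox9, rho -0.37). Gata4 had r of 0.011 without WT replicate 1 and 0.71 without WT replicate 3. The same values were -0.18 and 0.42 for Wt1, and -0.28 and -0.44 for Sox9. These values describe 6 libraries that share their normalization, and no p is given because the pattern was picked after the values had been seen.

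Part of the second list showed the same order. In 6 of its 17 genes WT replicate 1 was the lowest of the 6 libraries and WT replicate 3 the highest, as in 3 of the 6 tested members, while 7.73% of all tested genes had this order. The 6 genes were the homeobox gene Rhox8, the cystatins Cst9 and Cst12, Aard, Amhr2 and Mro. Their levels in WT replicate 3 were 4.31, 3.63, 2.69, 3.21, 2.82 and 2.53 times those in WT replicate 1. They were also the 6 genes of the list with r above 0.9 with Clu, between 0.95 (Amhr2) and 0.99 (Cst12), where 1.76% of all tested genes had such an r. Clu has the same order, so a high r was partly set by how these 6 genes were picked. Over the 4 libraries left after dropping WT replicate 1 and MUT replicate 1, r lay between 0.68 (Amhr2) and 0.94 (Cst12). Without WT replicate 1 alone it lay between 0.81 (Amhr2) and 0.97 (Cst12), and 3.35% of all tested genes had an r above 0.9. Without WT replicate 3 alone it lay between 0.93 and 0.99, and that share was 2.65%. These genes were singled out after their values had been seen. Over the 4 libraries, the 6 macrophage genes also had r with Clu between 0.84 (Adgre1) and 0.99 (Lyz2). A high r there was thus not particular to Sertoli cell genes, and the share of all genes with such an r was not computed.

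The rest of the second list was mixed. Over all 17 genes, 9 were lowest in WT replicate 1 and 9 highest in WT replicate 3, and the median ratio of WT replicate 3 to WT replicate 1 was 1.77. Among the genes outside the 6, the ratio was 2.90 for Shbg, 1.88 for Inhbb, the inhibin beta B subunit, and 1.77 for Gata1, all lowest in WT replicate 1. It was 1.73 for Nr5a1. Dhh, a hedgehog ligand (1.35), and Trf (1.34) were highest in WT replicate 3. Ctsl, also highest there, had 1.18 times the level in WT replicate 3 of that in WT replicate 1, and Kitl, encoding KIT ligand, 0.944 times. Gdnf was lowest in WT replicate 3, at 0.549 CPM against 1.09 CPM in WT replicate 1. Kitl, Gdnf and Nr5a1 are also expressed by other somatic cells of the testis.

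**Figure D4:**
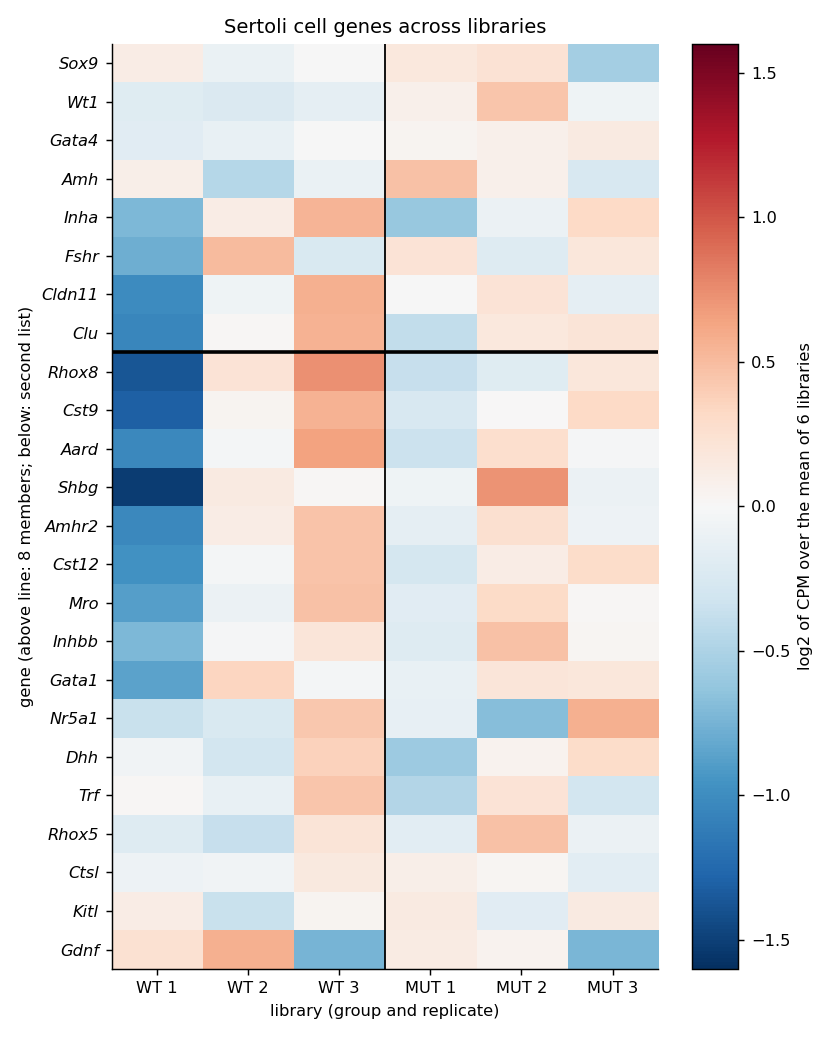
Log2 of the CPM of each gene over its mean of the 6 libraries, for the 8 members (above the line) and 16 of the 17 genes of the second list (below it, ordered by the ratio of WT replicate 3 to WT replicate 1). Inha, Cldn11 and Clu, and below them Rhox8, Cst9, Aard, Amhr2, Cst12 and Mro, are blue in WT replicate 1 and red in WT replicate 3, while Sox9, Wt1 and Gata4 are pale in both.

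Other cell type lists moved over the same libraries. The summed level of the 6 macrophage genes was highest in WT replicate 3 (1197 CPM, against 642 to 833 CPM elsewhere), and all 6 genes were highest there. The 5 spermatid genes were also highest in sum in WT replicate 3 (1459 CPM, range 593 to 1459 CPM), as were the 5 pachytene spermatocyte genes (341 CPM, range 138 to 341 CPM). The 8 genes of undifferentiated spermatogonia summed to their lowest there (2047 CPM, range 2047 to 2662 CPM). With the replicate block, edgeR called the spermatid gene Tnp1 lower in MUT (log2 fold change -0.63, adjusted p = 0.0794), and DESeq2 called Tnp1, Prm1, Tnp2 and Pgk2. In none of these lists was WT replicate 1 the lowest library for any gene. In other lists it was the lowest for 3 of 5 tested Leydig genes and 2 of 6 peritubular myoid genes. It was also the lowest for 2 of 4 genes of differentiating spermatogonia, and for 18.9% of all tested genes. The median ratio of WT replicate 3 to WT replicate 1 was 3.08 for Leydig genes and 1.46 for peritubular myoid genes, against 1.77 for the tested members. No gene of any list was at 0 in all libraries. The part of these cell types in the Sertoli gene levels was not tested.

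Leydig cell genes were highest in MUT replicate 3, with 67.3 CPM over 6 steroidogenic and related genes against 12.9 to 21.1 CPM in the others, and all 6 had their maximum in this library. Most Sertoli members lay below their WT maximum there. Clu in this library was 0.783 times the highest WT library, Inha 0.851 times, Cldn11 0.614 times and Sox9 0.629 times. Wt1 was at 1.06 times the highest WT library, with its maximum in MUT replicate 2. Gata4, at 1.11 times the highest WT library, was the 1 member at its maximum in MUT replicate 3, and without that library its log2 fold change was 0.17. In the second list Nr5a1, which Leydig cells also express, and Kitl were at their maximum there (1.10 and 1.02 times the highest WT library). The part of Leydig cells in these values was not tested.

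Added up, the 8 members gave 62.1, 104 and 143 CPM in WT and 87.8, 119 and 117 CPM in MUT. The MUT libraries lay inside the WT range. The sums averaged 103 ± 40.3 CPM (SD, n = 3) in WT and 108 ± 17.6 CPM in MUT, a log2 ratio of 0.072. Without WT replicate 1 the log2 ratio was -0.19 and without WT replicate 3 it was 0.38, so its sign depended on these libraries. Clu made up between 54.6% (WT replicate 1) and 72.0% (WT replicate 3) of the members' counts, and without Clu the other 7 summed to 28.1, 33.5 and 39.9 CPM in WT and 34.6, 41.2 and 36.7 CPM in MUT.

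The genes most like the members were found by averaging the centred log2 CPM of the 6 tested members in each library, and correlating 16662 other genes of at least 1 CPM with that profile. The 5 highest were Mro (r = 0.9995), Dnajc17 (r = 0.996), Spef1 (r = 0.995), Fcf1 (r = 0.994) and Snu13 (r = 0.993), over 6 libraries. Of these, Mro belongs to the second list. Of the 100 highest of the 16662, 3 were among the 14 genes of the second list that could be compared (Mro, Aard and Amhr2). From the other cell type lists 0 came. These held only 2 to 8 comparable genes each, so 0 among 100 of 16662 says little about them. The rest of the 100 highest were on no list used here, and which cells they come from was not tested. The ranking depended on the libraries: without WT replicate 1, 22 of these 100 genes were again among the 100 highest, and without WT replicate 3, 44 were. Mro stayed at rank 1 in both cases.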

How the data were processed

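RNA from tdTomato+ MCAM-bright A_undiff was sequenced from TruSeq stranded mRNA libraries, 3 WT and 3 MUT. For every sample the authors deposited raw counts by gene name, with no normalization, from featureCounts 1.6.2 on GENCODE M17 of GRCm38.p6 with tdTomato added, without regard to strand, leaving out fragments with several alignments or several genes. STAR is listed as the aligner in the submitters' notes, and its version is not given in the sources used here. Groups and replicate numbers were taken from the sample labels.

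The counts of 53657 names were analysed in R 4.3.3. edgeR 4.0.16 (TMM, filterByExpr, 19656 genes kept) compared MUT with WT by genotype alone in its quasi-likelihood test, adjusted over all tested genes by Benjamini-Hochberg at an FDR of 0.1. Log2 CPM used a prior count of 2, and RPKM used the deposited exon lengths. DESeq2 1.42.0, limma voom (limma 3.58.1), DESeq2 size factors, other count filters, leaving out each library in turn, a block on replicate number and an FDR of 0.05 were alternatives. For the block, same-numbered WT and MUT samples deviated together from their group means (r = 0.30, 0.16 and 0.40 for replicates 1, 2 and 3, over 10583 genes of at least 10 CPM). The numbers come from the labels, and the study states only that controls were littermates. The r of samples with unlike numbers is not given, so these values do not show that the numbers mark pairs. Correlations without WT replicate 1 or WT replicate 3 were added after seeing the data.

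Each sample had 22729292 to 23550433 counts. Floors and counting errors cover counting error only, since PCR duplicates could not be separated. The members and lists were chosen with earlier results of these data known. All 8 members were named, with the 3 most abundant genes and the 3 with the log2 fold changes farthest from 0 of the second list, the most abundant gene of a cell type list and the 5 genes most like the members. Coordinates of genes are those of the GENCODE annotation on GRCm38, and promoter sequences are from RefSeq. The result for 1 gene of the second list is not reported here. The tests were tested on simulated counts.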

Additional observations from a re-analysis of the deposited data

How the results depend on the processing

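No member and no gene of the second list was called under any alternative that was run. The count over all genes, 2 by edgeR, was 9 with DESeq2, 4 with limma voom, 5 with no filter, 1 at an FDR of 0.05 and 0 (479 genes with an unadjusted p under 0.05) when every sample needed at least 10 counts, where fewer genes were tested. The replicate block gave 13 in edgeR and 55 in DESeq2, and the block changed no call of a member or of a gene of the second list. Leaving out a library gave counts from 0 (without MUT replicate 2, 292 genes with an unadjusted p under 0.05) to 6 (without MUT replicate 3), with 5 without WT replicate 3 and 1 without MUT replicate 1. The cause was not tested.

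The sign of 4 members' log2 fold changes turned when a library was left out. Over the libraries left out in turn, Sox9 ran from -0.16 to 0.20 (above 0 without WT replicate 1, 0.038, or MUT replicate 3), Inha from -0.44 to 0.16 (above 0 without WT replicate 3 or MUT replicate 1, 0.045), Cldn11 from -0.26 to 0.49 (below 0 without WT replicate 1 or MUT replicate 2, -0.052) and Clu from -0.30 to 0.43 (below 0 without WT replicate 1, MUT replicate 2, -0.059, or MUT replicate 3, -0.068). Wt1 stayed above 0, from 0.19 to 0.47 with a lowest adjusted p of 0.367 by edgeR, and so did Gata4, from 0.15 to 0.24. The log2 ratio of the summed level ran from -0.19 to 0.38 when a library was left out. Taken as the mean of the log2 ratios of same-numbered pairs it was 0.14, a value that does not depend on how the libraries are paired. Depth limits Amh and Fshr, at 57 and 21 counts over all libraries.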

Other observations

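Outside the Sertoli lists, Dmrtb1, a transcription factor of differentiating spermatogonia, was the gene of the cell type lists with an r above 0.9 with Clu (r = 0.93, rho 0.83, over 6 libraries). It had 44.8, 74.6 and 79.3 CPM in WT replicates 1, 2 and 3 and 64.6, 87.3 and 77.8 CPM in MUT replicates 1, 2 and 3. Without WT replicate 1 and MUT replicate 1 its r was 0.16, without WT replicate 1 alone 0.74 and without WT replicate 3 alone 0.98. Tagln, encoding transgelin of peritubular myoid cells, came next with r = 0.89 and had 21, 31 and 37 counts in WT and 22, 26 and 32 in MUT. The r of Tagln was 0.89 without WT replicate 1 and 0.84 without WT replicate 3. Of the second list, Gdnf (r = -0.59) ran against Clu, and over the 4 libraries left its r was -0.78. Without WT replicate 1 alone the r of Gdnf was -0.65, and without WT replicate 3 alone it was -0.38. Gdnf was not alone in this, as the 8 genes of undifferentiated spermatogonia had a median r of -0.67 with Clu over 6 libraries.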
